A study of Mus musculus with 9 samples.

Results

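The MYC network was described here by 7 genes, Myc, Mycn, Mycl, Max, Mxi1, Mxd4 and Mnt, chosen by symbol among the 32285 mouse genes counted in single-cell RNA sequencing of brain tissue. All 7 symbols were found once each in the gene lists, and no measured value was used to choose them. MYC, MYCN and MYCL are transcription factors of the basic helix-loop-helix leucine zipper family. Each has to pair with MAX to bind DNA at E-boxes, and the pairs activate genes for ribosome assembly, metabolism and cell division. MXI1 (also called MXD2), MXD4 and MNT pair with the same MAX protein, bind the same sites and recruit SIN3 co-repressors, so that MAX is shared between activating and repressing pairs. In the developing brain, Mycn is known for sustaining the expansion of neural progenitors, while MXD proteins are known for being expressed in cells that differentiate.

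The tumors were EP ZFTA-RELA, a mouse model of supratentorial ependymoma. The genotype of these 5 mice was NestinCreERT2;Fus1, in which a Cre under the Nestin promoter switches on a conditional fusion allele in the radial glia of the embryo. The 4 control brains came from NestinCreERT2;TdT mice without the fusion, and both groups carried NestinCreERT2. The TdT reporter was listed for controls alone, so the groups differed by that allele too. All mice were aged 6-8 weeks and gave 1 library each. Cells were sorted as Ter119-negative, which removes red blood cells, and the messenger RNA was tagged at its 5′ end with unique molecular identifiers (UMIs), so that each captured transcript counted once whatever its length. Levels are given as CPM, the UMIs of a gene divided by the UMIs of all mouse genes in the same cells and scaled to the usual CPM total, and 95% Poisson intervals cover counting error only. A gene was called at an adjusted p of 0.05 in edgeR's quasi-likelihood test on counts summed per mouse, with Benjamini-Hochberg adjustment over all genes tested. Libraries were scaled by TMM, which allows for differences in composition, and fold changes are on the log2 scale of that fit.

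The cells kept were 20405 from controls and 15916 from tumors, and the kept UMIs per library ran from 5902794 to 37652982. Cells were put into classes by counting markers detected in each cell, with none of the 7 genes among the markers. Controls were 89.2–92.3% neuron-like cells, against 0–37.5% in tumors, where tumor 4 had none. Phagocyte-like cells made up 2.29–2.53% of controls and 9.38–23.2% of tumors, and neural-progenitor-like cells at most 0.0157% of controls and 0.592–20.4% of tumors. The smallest barcode considered as a cell held 1473–2695 UMIs in controls and 500–2113 UMIs in tumors. This limit was higher in controls 2, 3 and 4 than in any tumor, while control 1 (1473) was below tumor 4 (2113). Cells with little RNA could thus be left out unequally, and the effect on the class shares was not tested. Genes held out of the gates were highest in their own class for phagocyte-like, endothelial-like, astrocyte-like and oligodendrocyte-like cells in both groups. For neural-progenitor-like cells the held-out genes Vim, Ednrb and Dbi ranked the class 4th among tumor classes, with ependymal-like cells first, so that name rests on its gate markers. UMIs of the fusion gene and its luciferase were at 0 in all controls. In tumor 4, 25.7% of phagocyte-like cells held at least 2 such UMIs, against 0–1.77% in the other tumors. Over the 28 pairs of libraries without control 4, whose barcode list was not used, the barcodes considered as cells were shared 19–45 times a pair.

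All 7 genes are annotated as protein coding in mm10 (GENCODE vM21). Myc lies at chr15:61985391-61990374 on the plus strand, Mycn at chr12:12936093-12941914 on the minus strand and Mycl at chr4:122995652-123002485 on the plus strand. Max lies at chr12:76937269-76962201 on the minus strand, where an experimental annotation, Gm47218, overlaps it on the same strand. Mxi1 lies at chr19:53310518-53375810 on the plus strand, Mxd4 at chr5:34173883-34187720 on the minus strand and Mnt at chr11:74830920-74845725 on the plus strand. Mxi1 and Mxd4 are overlapped by genes on the opposite strand (AC133451.2 and Gm10197, and Gm42846). Mycs, a further gene of the MYC family, had 2 UMIs in tumors and 0 in controls.

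The site that MYC:MAX and MXD:MAX pairs recognise, the palindromic E-box CACGTG, was looked for in the windows from 250 bases before to 50 bases after each annotated start (RefSeq, GRCm38.p6). It was present in 2349 of 32851 windows of this kind, or 7.15%, and in at least 1 window of 2187 of 27025 genes, or 8.09%. Windows were found for 6 of the 7 members and 3 of those members held the E-box. The 3 sites are shown because they belong to MAX and to members of its repressing side, with the E-box in capitals and 30 bases printed 5′ to 3′ on the gene's strand.
Max, chr12:76962234-76962263, minus strand, E-box starting 3 bases before the start: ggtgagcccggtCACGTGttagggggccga
Mxd4, chr5:34187912-34187941, minus strand, E-box starting 219 bases before the start: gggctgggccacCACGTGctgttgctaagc
Mnt, chr11:74830789-74830818, plus strand, E-box starting 123 bases before the start: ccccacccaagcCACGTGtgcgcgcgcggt
The windows of Mycl, Mycn and Mxi1 did not hold these 6 letters. A match describes the sequence and does not show binding.

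The first comparison summed all kept cells of each mouse and asked whether the network differed between EP ZFTA-RELA and control brains. The activating members Myc, Mycn and Mycl were higher in tumors, as were the repressing partners Mxi1 and Mxd4, whereas Max and Mnt were not called. Called members were thus 5 of 7, all higher, beside 61.6% of all genes tested in this comparison with 32.3% called higher and 29.4% lower. The sum over all cells cannot tell more RNA per cell from more cells of a type. Where the tumors of a member all lay above the controls, this describes its values. How many of all genes did so is not given here.

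Myc was at 1.96, 2.09, 1.14 and 1.75 CPM in the controls and at 7.28, 11.7, 10.7, 5.82 and 4.66 CPM in tumors 1 to 5. Every tumor was above every control. The log2 fold change was 2.46 ± 0.37 (SE; adjusted p = 0.00059, edgeR).

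Mycn was at 4.36, 4.46, 3.22 and 3.96 CPM in the controls and at 12.7, 5.15, 23.9, 12.5 and 45.5 CPM in the tumors. The groups did not overlap, but tumor 2 lay close to the controls and tumor 5 stood far above the other tumors. The log2 fold change was 2.55 ± 0.55 (adjusted p = 0.0034, edgeR) and 1.95 without tumor 5 (adjusted p = 0.0028, edgeR).

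Mycl was at 3.12, 3.39, 3.28 and 4.98 CPM in the controls and at 8.81, 2.73, 17.6, 12.6 and 8.70 CPM in the tumors. Tumor 2 was below all controls, so the groups overlapped, although the gene was called (log2 fold change 1.66 ± 0.44, adjusted p = 0.0088, edgeR).

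The mix of the activating members differed from tumor to tumor. Of the summed UMIs of Myc, Mycn and Mycl, Myc was 59.7% in tumor 2 and 7.93% in tumor 5, while Mycn was 26.4% in tumor 2 and 77.3% in tumor 5. Tumors 1, 3 and 4 lay between them for Myc (18.8–25.3%) and Mycn (40.5–45.8%). For Mycl they were at 30.6–40.7%, above tumor 2 (13.9%) and tumor 5 (14.8%). In the controls Myc was 14.9–21.0%, Mycn 37.1–46.2% and Mycl 33.1–46.6%. These shares rest on 121–232 UMIs in controls and 170–1165 UMIs in tumors.

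Among the repressing partners, Mxd4 had the highest level in every library. It was at 69.9, 64.9, 60.3 and 64.6 CPM in the controls and at 127, 114, 131, 124 and 98.4 CPM in the tumors. All tumors were above all controls, with a log2 fold change of 1.12 ± 0.16 (adjusted p = 0.00043, edgeR).

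Mxi1 was at 34.2, 34.7, 30.4 and 34.1 CPM in the controls and at 34.1, 52.4, 70.9, 34.5 and 57.9 CPM in the tumors. Tumors 1 and 4 lay within the control range and the other 3 above it. The call (log2 fold change 0.83 ± 0.24, adjusted p = 0.013, edgeR) was lost in 2 of 17 alternatives, among them library size scaling in place of TMM, where the log2 fold change was 0.58 and the adjusted p 0.056.

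Mnt was at 20.2, 21.2, 17.2 and 18.9 CPM in the controls and at 16.3, 20.7, 16.9, 22.8 and 22.1 CPM in the tumors, and the groups overlapped (log2 fold change 0.32 ± 0.23, adjusted p = 0.25, edgeR). Max, the obligate partner, was at 31.0, 32.1, 34.3 and 31.6 CPM in the controls and at 46.4, 33.4, 67.6, 27.8 and 27.2 CPM in the tumors. Tumors 4 and 5 were below the controls and tumors 1 and 3 above them. Max missed the threshold (log2 fold change 0.52 ± 0.21, adjusted p = 0.052, edgeR) and passed it when tumor 4 or tumor 5 was left out (0.62 with adjusted p = 0.025, and 0.63 with adjusted p = 0.022). Per mouse, Myc, Mycn and Mycl together took 6.62–8.34% of the UMIs of all activating and repressing members in the controls and 9.47–24.8% in the tumors, with tumor 2 lowest and tumor 5 highest.

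**Figure D1:**
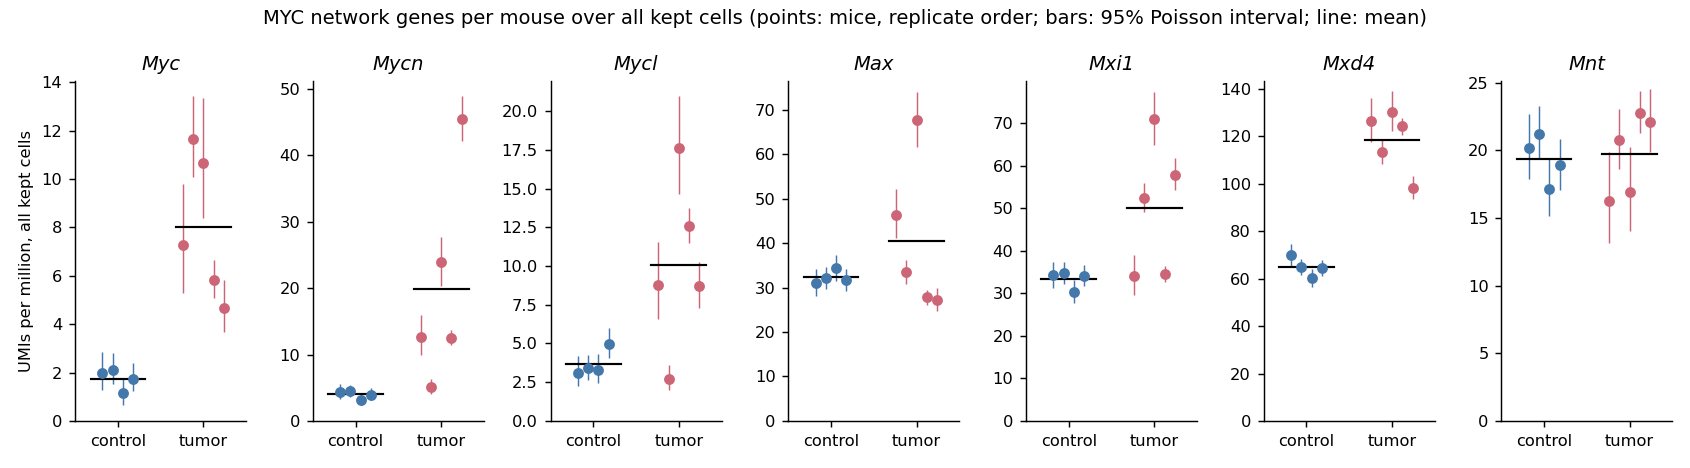
Level of each of the 7 genes over all kept cells, with 1 point per mouse, CPM on the y axis of each panel, 95% Poisson intervals as bars and the group mean as a line. The 5 tumors sit above the 4 controls for Myc, Mycn and Mxd4, and the groups overlap for Mycl, Max, Mxi1 and Mnt.

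Other genes of the network were read as lists, whose members were chosen with earlier results of these data known. Of 6 further partners and paralogs, 3 were higher and 1 lower over all cells, beside 32.3% and 29.4% of all genes. Mxd3, the MXD family member known for expression in dividing cells, had a log2 fold change of 5.06 ± 0.71 (adjusted p = 0.00045, edgeR). Mlx, a MAX-like partner of MXD and MONDO proteins, was higher (0.87 ± 0.21) and Mga, a large MAX-binding repressor, was lower (−0.41 ± 0.16). Of 16 cofactors and regulators of MYC protein, 6 were higher and 4 lower, shares near those of all genes. Aurka, a mitotic kinase that stabilises MYCN protein, was at 4.57 ± 0.65 on the log2 scale. Fbxw7, the ubiquitin ligase subunit that marks MYC for degradation, was at −1.88 ± 0.25, and Usp28, the deubiquitinase that opposes it, at −1.53 ± 0.24. Neuron-like cells made up most of the control libraries and few of the tumor libraries, and what this contributed to these values was not tested.

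Of 30 genes known as activated by MYC, 17 were higher and 2 lower over all cells, beside 32.3% and 29.4% of all genes, and their median log2 fold change was 0.93 beside 0.04 for all genes tested. Cdk4, a kinase of G1 progression, rose by 3.20 ± 0.57 on the log2 scale, and Gnl3, a nucleolar GTPase of stem cells, was lower at −0.54 ± 0.18. Of 5 genes known as repressed by MYC, 4 were higher and none lower, beside the same shares of all genes. They included the cyclin-dependent kinase inhibitors Cdkn1a (4.97 ± 0.40) and Cdkn2b (5.31 ± 0.60).

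Within the tumors, each member was next described by cell class, over the 10 classes with at least 20 cells in at least 3 tumors. By mean CPM, with no allowance for free RNA, Myc was highest in phagocyte-like cells and Mycn in neuroblast-like and neural-progenitor-like cells. Mycl was highest in cells like oligodendrocyte precursors (OPC-like). Neighbouring classes in each order overlapped in range, except the lowest pair for Mycl, so the orders are a description. Ependymal-like cells were measured in tumor 2 alone and stand outside the order, with Myc at 42.1 CPM from 6 UMIs.

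Myc in phagocyte-like cells was at 35.6, 13.9, 24.8, 12.4 and 16.3 CPM in tumors 1 to 5, with a mean of 20.6 ± 9.65 (SD, n = 5). In neural-progenitor-like cells of tumors 2 to 5 it was at 11.3, 24.6, 4.64 and 3.26 CPM, so that tumors 2 and 3 were above tumors 4 and 5. The values of tumors 3 and 5 rest on 8 and 5 UMIs. In neuroblast-like cells Myc was at 0 in tumors 2, 3 and 4 and at 1.50 CPM in tumor 5, the lowest mean of the 10 classes. Phagocyte-like cells held 22.8–69.3% of all Myc UMIs of a tumor, more than their share of cells, while neural-progenitor-like cells held 0–19.2%. Unclassed cells with at least 2 UMIs of the tumor allele held another 16.2, 22.8 and 4.0% in tumors 2, 4 and 5. Their levels were 21.2, 4.29 and 2.68 CPM, in tumor 2 above the phagocyte-like cells. Other unclassed cells held 2.33–34.7%. In controls, by contrast, neuron-like cells held 83.3–97.4% of the Myc UMIs, near their share of cells.

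Mycn in neuroblast-like cells, which carry markers of young inhibitory neurons, was at 8.47, 64.1, 46.1 and 71.0 CPM in tumors 2 to 5. The value in tumor 2 rests on 1 UMI in 30 cells. In neural-progenitor-like cells Mycn was at 7.45, 67.7, 17.6 and 36.5 CPM, lowest in the same tumor. Unclassed cells with at least 2 UMIs of the tumor allele had 5.97, 12.95 and 56.2 CPM in tumors 2, 4 and 5. Tumor 2 thus had the lowest Mycn in each of these 3 sets of cells, and in its neural-progenitor-like cells Myc took 55.2% of the UMIs of the 3 activating members against 7.94–22.9% in tumors 3 to 5. Other unclassed cells held 19.3–46.7% of the Mycn UMIs of a tumor, so a large part of its transcripts lay outside the named classes. In the 3000 barcodes with the fewest UMIs, a proxy for free RNA, Mycn was at 5.20, 8.32, 12.8 and 31.0 CPM in tumors 2 to 5. The Poisson intervals there overlapped those of neural-progenitor-like cells in tumors 2, 4 and 5. They overlapped those of neuroblast-like cells in tumor 2 alone. The part of free RNA was not tested.

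Mycl in OPC-like cells was at 123, 15.01, 183, 119 and 34.8 CPM, a mean of 94.97 ± 69.1 (SD, n = 5). Tumor 2 was low here too, with 6 UMIs. Neuroblast-like cells followed at 50.8, 54.5, 10.6 and 25.0 CPM in tumors 2 to 5, and no other class had a mean above 6.41 CPM. In mural-like cells, the pericytes and smooth muscle of vessels, Mycl was at 0 in the 3 tumors measured. Of all Mycl UMIs, OPC-like cells held 5.0–71.5%, with the highest share in tumor 4, where they were 9.41% of cells.

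**Figure D2:**
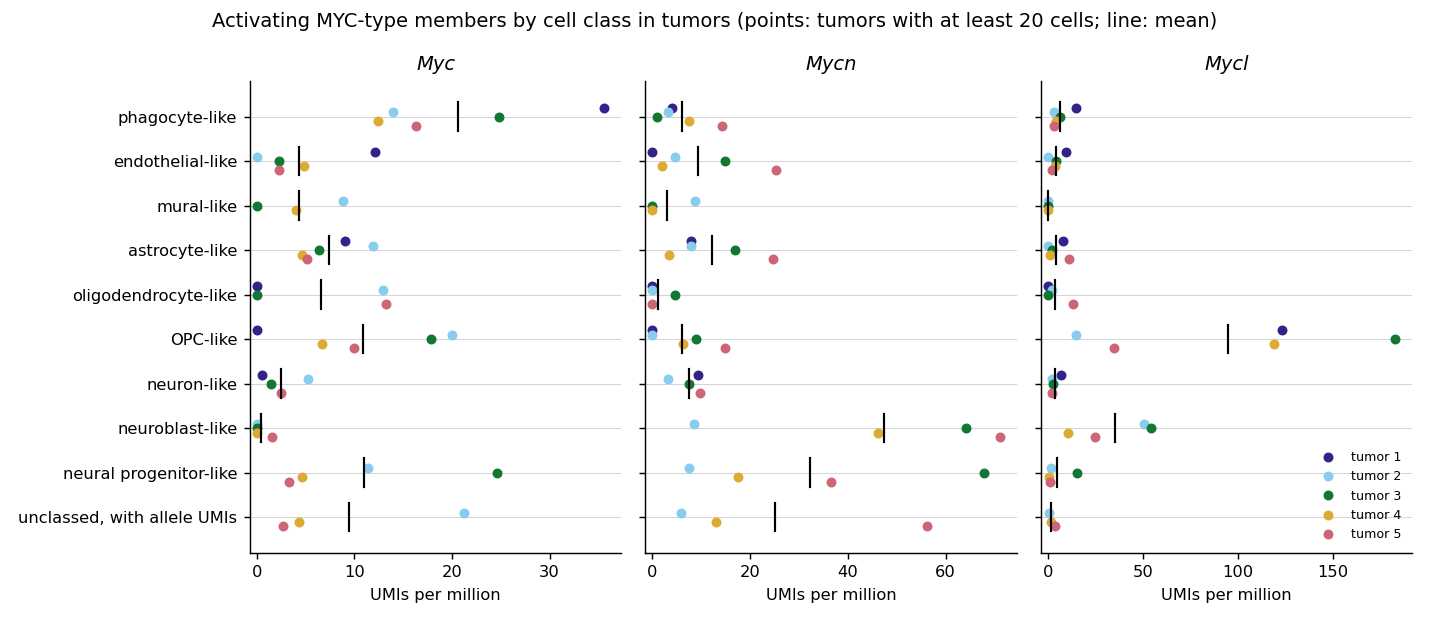
Myc, Mycn and Mycl by cell class in tumors, with CPM on the x axis, 1 point per tumor with at least 20 cells of the class, and the mean over tumors as a line. By mean CPM, with no allowance for free RNA, Myc is highest in phagocyte-like cells, Mycn in neuroblast-like and neural-progenitor-like cells, and Mycl in OPC-like cells. The spread between tumors is wide.

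Max was counted in every class at means of 27.7–82.9 CPM, with the highest mean in endothelial-like cells, which line vessels. There it was at 77.5, 71.0, 163, 61.4 and 41.3 CPM in tumors 1 to 5. Endothelial-like cells were above phagocyte-like cells in each tumor. The remaining 9 classes had means between 27.7 and 41.5 CPM, and neighbours in that range overlapped. The barcodes with the fewest UMIs, the proxy for free RNA, were at 25.5–47.0 CPM in tumors, around the same level. The part of free RNA was not tested.

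In mean CPM, Mxd4 was also highest in cells of vessels. Endothelial-like cells were at 223, 213, 180.5, 157 and 216 CPM and mural-like cells of tumors 2, 3 and 4 at 202, 205 and 206 CPM. Astrocyte-like cells followed at 184, 202, 172, 142 and 162 CPM. The low end was held by phagocyte-like cells, at 72.5, 64.7, 65.7, 93.6 and 59.2 CPM, and by neuroblast-like cells at 84.7, 78.5, 88.7 and 81.9 CPM in tumors 2 to 5. Every astrocyte-like and endothelial-like value was above every phagocyte-like value.

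Mxi1 varied less between classes, with means from 40.6 CPM in phagocyte-like to 94.7 CPM in mural-like cells. The mural-like value rests on tumor 2, at 167 CPM, against 80.7 and 36.3 CPM in tumors 3 and 4. Neuroblast-like cells were steadier at 93.1, 104, 85.1 and 86.7 CPM. With cells thinned to 1000 UMIs each, OPC-like cells had the highest share of cells with an Mxi1 UMI, so its leading class depended on the measure. Mnt, a widely expressed repressing partner, had its lowest mean CPM in endothelial-like cells, at 9.69, 9.26, 12.6, 10.6 and 2.30 CPM. In neuron-like cells Mnt was at 25.7, 26.2, 25.4 and 29.5 CPM in tumors 1, 2, 3 and 5. Its order too depended on the measure, since the thinned share was lowest in OPC-like cells (0.59%, against 1.01% in endothelial-like cells) and highest in neural-progenitor-like cells.

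**Figure D3:**
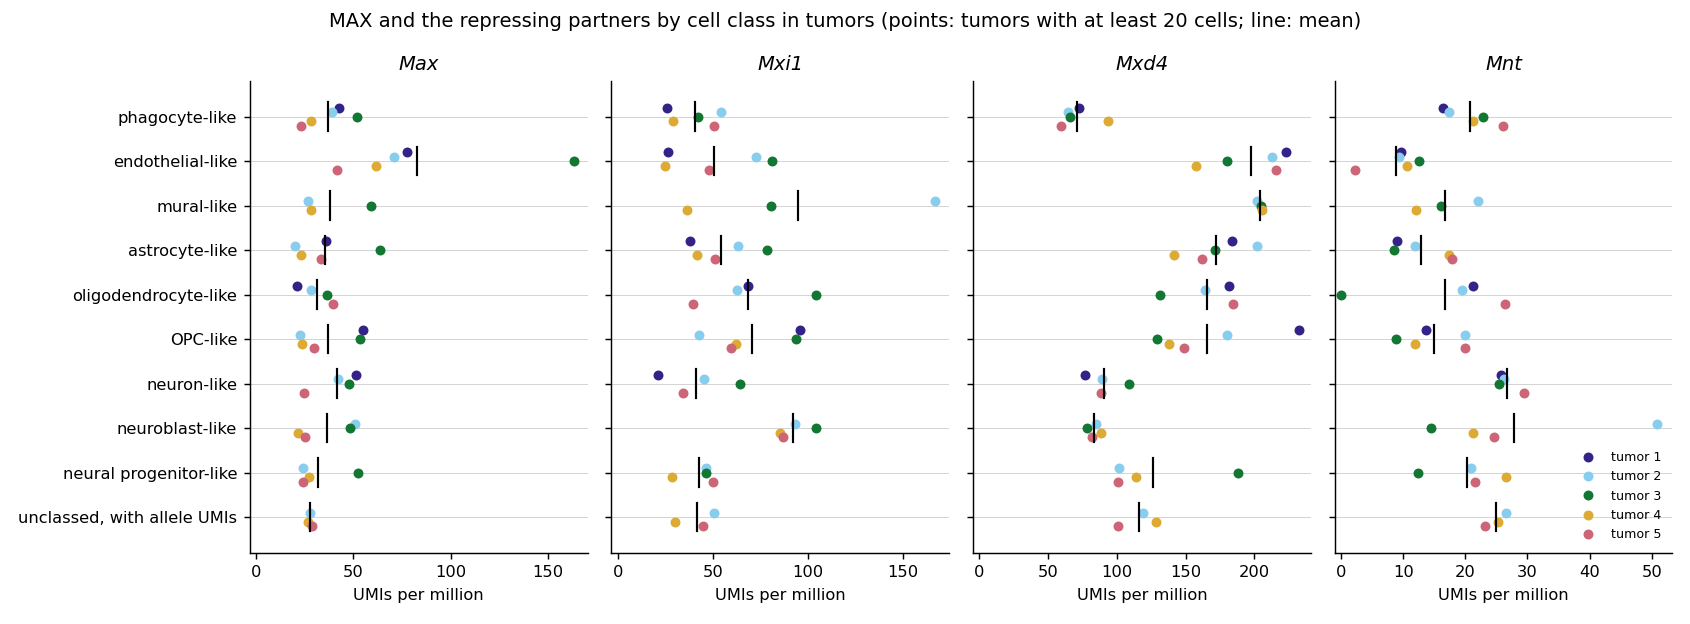
Max, Mxi1, Mxd4 and Mnt by cell class in tumors, with CPM on the x axis, 1 point per tumor with at least 20 cells of the class, and the mean over tumors as a line. Endothelial-like cells are highest for Max, near the top for Mxd4 and lowest for Mnt in CPM.

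Differences between classes were tested within tumors 2, 4 and 5, which had at least 50 cells of each class, with the mouse as a block. In neural-progenitor-like against phagocyte-like cells, Mycn was higher (log2 fold change 0.97 ± 0.26, adjusted p = 0.018, edgeR) and Myc lower (−1.47 ± 0.36, adjusted p = 0.011, edgeR). The 2 called members of 6 tested stand beside 35.1% of all genes tested in this comparison. The Poisson intervals of Mycn in neural-progenitor-like cells and in the barcodes with fewest UMIs overlapped in all 3 tumors. The part of free RNA in this difference was not tested. Mycn was higher in the neural-progenitor-like cells of each of the 3 tumors. Its call was lost in 4 of 12 alternatives, without tumor 4 (adjusted p = 0.065), without tumor 5 (adjusted p = 0.14), with DESeq2 (adjusted p = 0.092) and without the mouse block (adjusted p = 0.32). In these 4 the log2 fold change was 0.90–1.02, while it was 2.09 with a mitochondrial limit of 10%. Myc remained called with any 1 of the 3 tumors left out, with log2 fold changes from −1.98 to −1.20, and lost its call without the mouse block (−1.43, adjusted p = 0.091). In tumor 2 its Poisson intervals in neural-progenitor-like and phagocyte-like cells overlapped (7.76–16.0 and 10.3–18.4 CPM). In tumor 3, which was outside this test, Myc was at 24.6 CPM from 8 UMIs and 24.8 CPM. The fold changes of Max (−0.57 ± 0.25), Mxi1 (−0.43 ± 0.19), Mxd4 (0.23 ± 0.17) and Mnt (−0.18 ± 0.24) did not pass. Max passed without tumor 4 (−0.78, adjusted p = 0.045) and Mxd4 with library size scaling (0.55, adjusted p = 0.040). Mycl had too few UMIs to be tested.

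Against endothelial-like cells, neural-progenitor-like cells were lower in Max (−1.34 ± 0.27, adjusted p = 0.0047, edgeR) and in Mxd4 (−1.01 ± 0.22, adjusted p = 0.0075, edgeR) and higher in Mnt (1.41 ± 0.43, adjusted p = 0.032, edgeR). The background was 34.3% of genes called, beside 3 of the 5 members tested. Max and Mxd4 remained called in all 12 alternatives. The call on Mnt was lost in 6 of 12 alternatives, with adjusted p from 0.053 to 0.082 in these, among them leaving out tumor 4 or tumor 5, DESeq2 and voom. Mycn (1.18 ± 0.54, adjusted p = 0.13) was not called, at 0.45 without tumor 4 and 1.90 without tumor 5, and Mxi1 was at −0.30 ± 0.27. Among the listed genes, Mxd3 was higher in neural-progenitor-like cells than in phagocyte-like (1.96 ± 0.24) and endothelial-like cells (1.84 ± 0.48). Mlxipl and Mlxip, which encode glucose-sensing partners of MLX, were lower than in phagocyte-like cells at −4.98 ± 0.34 and −2.10 ± 0.34. Of the genes known as activated by MYC, 7 of 29 tested were higher and none lower than in phagocyte-like cells, and 11 of 27 were higher and 1 lower than in endothelial-like cells. Of 5 genes known as repressed by MYC, 2 were higher and none lower than in phagocyte-like cells. None of them was higher and 3 were lower than in endothelial-like cells. Cofactors were 4 higher and 2 lower in each comparison, of 16 and 15 tested. Of all genes, 16.4% were higher and 18.7% lower than in phagocyte-like cells, and 15.5% and 18.8% in the comparison with endothelial-like cells.

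Phagocyte-like cells were present in all 9 mice and allowed tumor and control to be compared within 1 class. Of the 5 members that passed the filter on low counts, Myc was called, beside 35.3% of all genes, with 16.4% called higher and 18.9% lower. Since Myc passed that filter through the tumors, where it was high, the count is a description. In controls it was at 10.4, 1.97, 3.13 and 0 CPM, from 3, 1, 1 and 0 UMIs, and in tumors at 35.6, 13.9, 24.8, 12.4 and 16.3 CPM, from 25–52 UMIs. As measured, with no allowance for free RNA, the tumors lay above the controls, with control 1 near the lowest tumor. The Poisson interval of control 1 overlapped those of all tumors. The intervals of controls 2 and 3 overlapped those of tumors 2, 4 and 5. The log2 fold change was 2.90 ± 0.64 (adjusted p = 0.0048, edgeR). In tumors 2, 3 and 4, macrophage-like cells were at 12.3, 11.7 and 10.1 CPM, the second from 2 UMIs, each below the microglia-like cells of the same tumor. In the microglia-like subset, which was 295 of the 604 phagocyte-like cells in tumor 4 and a majority in the other mice, Myc was at 7.43, 2.11, 3.47 and 0 CPM in controls and at 40.8, 16.9, 26.3, 12.99 and 17.5 CPM in tumors. The log2 fold change in microglia-like cells was 3.34 ± 0.61 (adjusted p = 0.0012, edgeR), with 38.8% of genes called, 20.0% higher and 18.8% lower. Here too Myc passed the filter through the tumors, with at most 2 UMIs in a control. These cells are part of the phagocyte-like cells, so this fit is not separate support.

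Controls had at most 3 Myc UMIs, and without tumor 2, 3, 4 or 5 Myc fell under the filter. With no filter and all mice, the log2 fold change was 3.05 in phagocyte-like cells (adjusted p = 0.0017, edgeR). With no filter and any 1 tumor left out, an alternative chosen after seeing the data, its log2 fold change stayed at 2.82–3.18 in phagocyte-like and 3.17–3.55 in microglia-like cells. Leaving out 1 control moved it more, over 2.51–3.92 in phagocyte-like and 2.89–4.02 in microglia-like cells, highest without control 1 in both. The call in phagocyte-like cells was lost with limma voom (2.62, adjusted p = 0.063).

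RNA of other cells moved with this result. The 10 neuron markers, all detected, summed to 3251–4022 CPM in phagocyte-like cells of controls and 168–1158 CPM in those of tumors. The 8 macrophage markers summed to 320–997 CPM in controls, with Gpnmb at 0, and to 1654–10228 CPM in tumors. The 10 neural progenitor markers were at 242–257 CPM in controls, with Tnc at 0, and at 142–1150 CPM in tumors. The level of Myc in free RNA was read from a proxy, the 3000 barcodes with the fewest UMIs, some of which may be cells. Myc was at 0.636–2.21 CPM in these barcodes of controls and 2.21–6.75 CPM in those of tumors. The Poisson intervals of these barcodes and of phagocyte-like cells overlapped in all 4 controls, in tumor 2 (3.596–11.6 and 10.3–18.4 CPM) and in tumor 4 (3.19–11.4 and 9.18–16.3 CPM). The part of other cells' RNA and of free RNA in the Myc result was not tested.

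**Figure D4:**
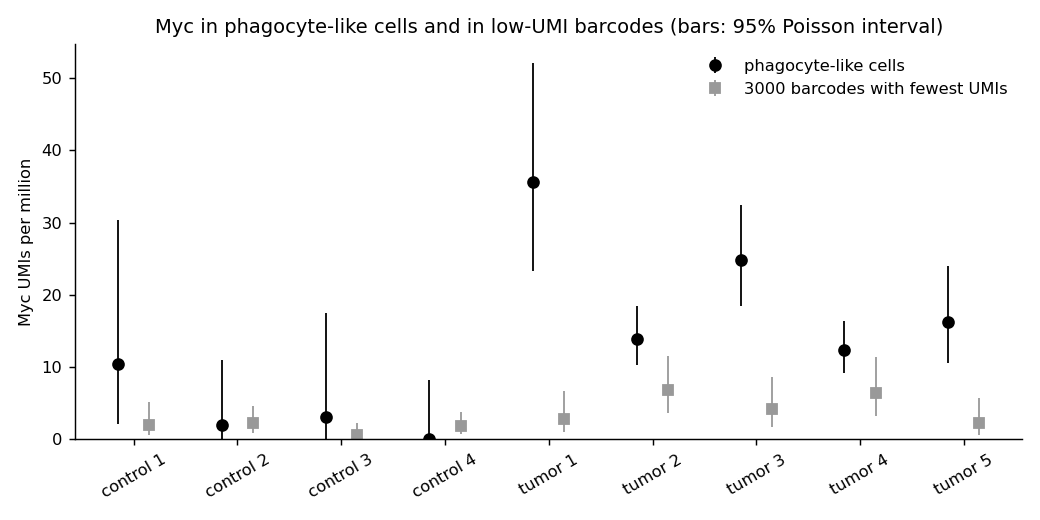
Myc in phagocyte-like cells and in the 3000 barcodes with fewest UMIs of each mouse, with CPM on the y axis and 95% Poisson intervals as bars. Phagocyte-like cells of the 5 tumors lie at 12.4–35.6 CPM and those of the 4 controls at 0–10.4 CPM.

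The other members did not pass in phagocyte-like cells. Max was at 30.9–44.9 CPM in controls and 22.8–51.9 CPM in tumors (log2 fold change 0.39 ± 0.28, adjusted p = 0.31, edgeR). Mxd4 was at 55.2–84.6 CPM in controls and 59.2–93.6 CPM in tumors (0.41 ± 0.22, adjusted p = 0.17, edgeR), and the groups overlapped. Mxi1 was at 44.9–62.7 CPM and 26.0–54.5 CPM (0.03 ± 0.28), and Mnt at 25.6–33.1 CPM and 16.4–26.0 CPM (−0.12 ± 0.23). The median log2 fold change of all genes here was 0.00 with TMM and −0.37 with library size scaling. Mycn was below the filter, with 1 UMI in controls and 0.952–14.3 CPM in tumors. Mycl was below it too, at 3.46–24.3 CPM in controls and 3.12–15.1 CPM in tumors.

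The lists were chosen with earlier results of these data known, so their counts, here and in the other comparisons, are a description. In phagocyte-like cells, the 25 tested genes known as activated by MYC had a median log2 fold change of 0.99 beside 0.00 for all genes. Of these, 14 were higher in tumors and none lower, beside 16.4% and 18.9% of all genes. They included Eif4a1, a helicase of translation initiation (1.29 ± 0.23), and Npm1, a nucleolar chaperone of ribosome assembly (1.15 ± 0.23). Of 10 cofactors tested, Pim1, a kinase that phosphorylates MYC, was at 3.30 ± 0.61, Sin3b, the co-repressor scaffold of MXD proteins, at 1.52 ± 0.24 and Fbxw7 at −1.95 ± 0.20. None of the 5 further partners tested was called. Of the genes known as repressed by MYC, Cdkn1a was at 4.12 ± 0.59 and Ndrg1, a stress-induced gene, at −2.51 ± 0.51. As given above, neuron markers were higher in phagocyte-like cells of controls than of tumors. The part of other cells' RNA in the values of Fbxw7, Ndrg1 and the other listed genes was not tested.

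In neuron-like cells, tumors 1, 2, 3 and 5 were compared with the 4 controls, and none of the 7 members was called, beside 15.7% of all genes, with 7.95% called higher and 7.78% lower. At an unadjusted p under 0.05, Mxd4 and Mycn passed. Mxd4 was at 68.4, 62.95, 58.1 and 63.1 CPM in controls and at 76.6, 89.2, 109 and 88.4 CPM in tumors (log2 fold change 0.40 ± 0.15, adjusted p = 0.097, edgeR). DESeq2 called it, with a log2 fold change of 0.39 and an adjusted p of 0.013. Mycn was at 3.33–4.64 CPM in controls and 3.15–9.83 CPM in tumors (0.77 ± 0.32, adjusted p = 0.13, edgeR). Mnt was at 17.4–21.6 CPM in controls and 25.4–29.5 CPM in tumors (0.34 ± 0.16, adjusted p = 0.17, edgeR). Myc rests on 8 UMIs in the tumor neurons (0.20 ± 0.64) and Mycl on 18 (0.37 ± 0.44). Max was at 0.35 ± 0.18 and passed without tumor 5 (0.46, adjusted p = 0.048), and Mxi1 was at 0.18 ± 0.26. Of the listed genes, 1 of 5 further partners tested was higher in these cells, Mlx (0.73 ± 0.15), and 2 of 15 cofactors, Sin3b (0.55 ± 0.14) and Zbtb17 (0.72 ± 0.19), which encodes the MYC partner MIZ1, while 1 cofactor, Usp28, was lower (−0.69 ± 0.20). Of 30 genes known as activated by MYC, 3 were higher and none lower, led by Shmt2 of serine metabolism (1.21 ± 0.24), and their median was 0.22 beside 0.01 for all genes. Of 4 genes known as repressed by MYC, 2 were higher, Cdkn1a (2.99 ± 0.30) and Cdkn1b (0.97 ± 0.29), and 1 lower, Ndrg1 (−1.59 ± 0.28). RNA of dividing and progenitor cells moved with these values. In neuron-like cells the 10 cycling markers, all detected, summed to 27.2–29.7 CPM in controls and 52.3–744 CPM in tumors, and the 10 neural progenitor markers to 288–298 and 330–625 CPM. Their part in the neuron-like values was not tested.

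Cycling and non-cycling neural-progenitor-like cells were compared within tumors 2, 4 and 5, with the mouse as a block. Cycling cells had at least 3 of 10 mitotic markers such as Mki67 and Top2a, and non-cycling cells at most 1. Both called members were repressing partners, Mxd4 and Mxi1, and both were lower in cycling cells. They were 2 of 6 members tested, beside 23.1% of all genes called, with 9.77% called lower and 13.4% higher.

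Mxd4 was at 143 CPM in non-cycling and 62.7 CPM in cycling cells of tumor 2, at 148 and 50.9 CPM in tumor 4, and at 107 and 96.0 CPM in tumor 5. It was lower in cycling cells of all 3 tumors, but in tumor 5 the Poisson intervals overlapped (79.8–140.2 and 76.6–119 CPM). The log2 fold change was −1.08 ± 0.16 (adjusted p = 5.28e-06, edgeR). It remained called without any 1 tumor, at −0.71 without tumor 4, −1.05 without tumor 2 and −1.36 without tumor 5. This range is wider than the SE, which does not give the spread between the 3 tumors. Without the mouse block the call was lost (−0.94, adjusted p = 0.19).

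Mxi1 was at 55.2 and 37.3 CPM in tumor 2, 32.3 and 20.3 CPM in tumor 4, and 47.3 and 41.1 CPM in tumor 5, lower in cycling cells of each tumor. The call (−0.50 ± 0.18, adjusted p = 0.038, edgeR) was lost in 5 of 13 alternatives. These were leaving out tumor 2 (adjusted p = 0.18) or tumor 4 (adjusted p = 0.40), DESeq2 (adjusted p = 0.47), no filter on low counts (adjusted p = 0.082) and no mouse block (adjusted p = 0.84). The third repressing partner, Mnt, was at 19.7 and 23.0 CPM in tumor 2, 28.4 and 23.4 CPM in tumor 4, and 16.4 and 25.1 CPM in tumor 5, with no common direction (0.01 ± 0.21). Max was at 0.02 ± 0.20. Myc and Mycn were not higher in cycling cells, with log2 fold changes of −0.69 ± 0.47 and −0.33 ± 0.25 (adjusted p = 0.32 and 0.37, edgeR). The point estimates of Mycn were lower in cycling cells of each tumor, at 4.76, 15.3 and 32.0 CPM against 6.31, 18.9 and 45.2 CPM.

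Mxd3 stood opposite to Mxd4 and Mxi1 within the same family, higher in cycling cells by 6.49 ± 0.30 on the log2 scale (adjusted p = 3.44e-17, edgeR). Of 15 cofactors tested, 5 were higher and none lower, beside 13.4% and 9.77% of all genes. Among them were Aurka (5.28 ± 0.27) and Cip2a, an inhibitor of the phosphatase that destabilises MYC (4.38 ± 0.33). Cycling cells were chosen by mitotic markers, so higher levels of genes of dividing cells, such as Mxd3 and Aurka, follow from that choice. Of 28 genes known as activated by MYC, 11 were higher and 1, Ccnd2, was lower, beside 13.4% and 9.77% of all genes. Of 4 genes known as repressed by MYC, 2 were higher, Cdkn1a (1.16 ± 0.13) and Cdkn1b (0.37 ± 0.12), and 1 lower, Cdkn2b (−1.14 ± 0.30).

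Markers of other classes moved with the cycling result. The 10 astrocyte markers, all detected, summed to 909–1385 CPM in non-cycling and 537–776 CPM in cycling cells, and the 8 ependymal markers to 625–1025 and 381–448 CPM, with Ccdc153 and Tmem212 at 0 in cycling cells. The 10 neural progenitor markers themselves were at 2404–2581 and 1630–2068 CPM. Their part in the result was not tested. The median depth per cell was also higher in cycling cells, at 8970, 10070.5 and 5936 UMIs against 5757, 7151.5 and 3575 UMIs. In phagocyte-like cells of the same 3 tumors Mxd4 was at 42.0, 65.5 and 50.2 CPM in cycling and 69.0, 97.3 and 65.3 CPM in non-cycling cells, again lower in each tumor, but with overlapping Poisson intervals in all 3 and without a test.

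**Figure D5:**
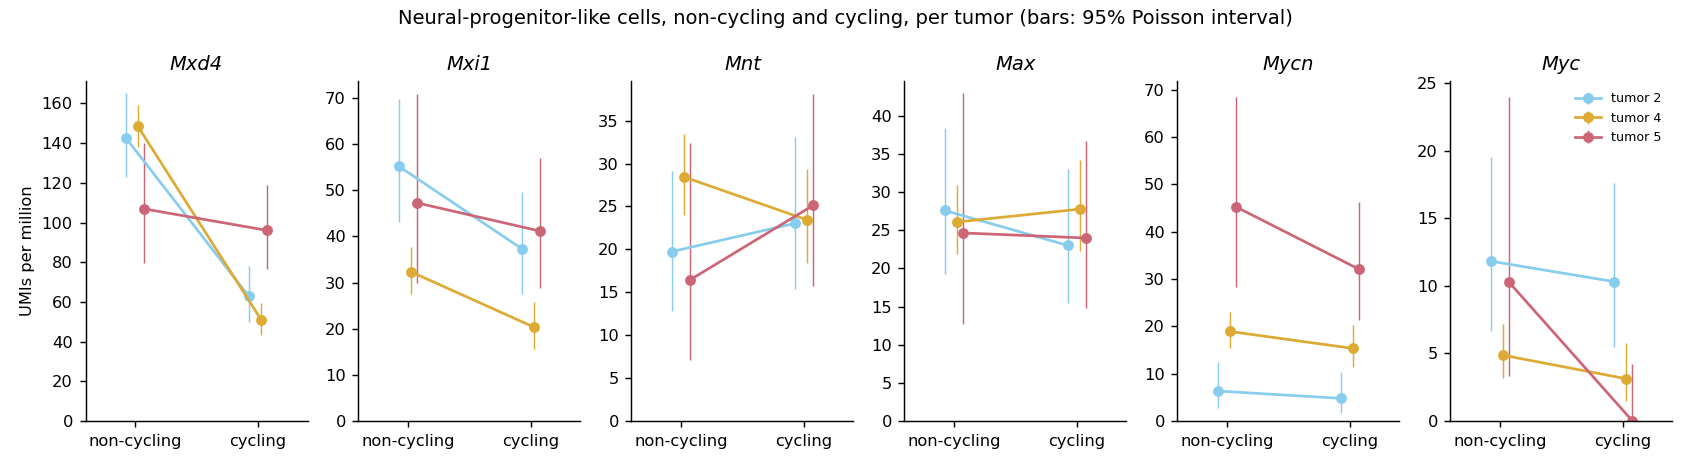
Members of the network in non-cycling and cycling neural-progenitor-like cells of tumors 2, 4 and 5, with CPM on the y axis, 1 line per tumor and 95% Poisson intervals as bars. Mxd4 falls from 143 to 62.7 CPM in tumor 2 and from 148 to 50.9 CPM in tumor 4, and from 107 to 96.0 CPM in tumor 5.

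Genes whose class means followed those of each member were ranked over the 5 classes with at least 50 cells in at least 3 tumors, by Pearson's r of log2(CPM + 10) among 10820 genes. With 5 points, r is high for many genes. For Myc, Pon3, Slfn8 and Asah1 were closest (r = 0.997, 0.996 and 0.996), and 62 genes reached an r of 0.95. For Mycn, Tcf3, Zfp637 and Cox7a2 were closest (r = 0.998 each) among 197 genes. For Max these were Slc38a2, Igfbp4 and Bmpr2 (r = 0.997, 0.994 and 0.994) among 127, and for Mxd4 Tspan12, Tcta and Zadh2 (r = 0.997, 0.996 and 0.996) among 49. Mxi1 was followed by Pcyt1a, Cdpf1 and Fmo1 (r = 0.998, 0.997 and 0.996) among 33 genes. Mnt had the fewest, 16, led by Ppan, Wdr43 and Mybbp1a (r = 0.998, 0.982 and 0.974). Mycl was below 20 CPM in these classes and was left out. These values describe 5 class means from the same libraries and carry no test.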

How the data were processed

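The 9 libraries were 10x Genomics 5′ gene expression, 4 control brains and 5 tumors, each from 1 mouse, as given by the labels. The authors aligned reads to mm10 with Cell Ranger (version 7 per the labels, 6.1.2 per the file headers), and the deposited values are raw UMI counts per gene and barcode. Added transgene features were listed beside the 32285 mouse genes. The gene list of control 4 held 32287 entries for 32289 matrix lines, so its transgene lines were read in the order of the other libraries.

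Cells were sought among the 10000 deepest barcodes of a library, or among all 9001 in tumor 3. In tumor 3 the barcodes with the fewest UMIs, the proxy for free RNA, were thus among those considered. Barcodes with 200–6000 genes were split by a mixture of 2 components on mitochondrial share and gene number. The component with the higher mitochondrial share was dropped. The median mitochondrial share of kept cells was 6.81–8.05% in controls and 2.11–9.87% in tumors. Barcodes with the highest Scrublet scores were removed as doublets, at a set rate of 0.8% per 1000 barcodes (Scanpy 1.11.5). A cell was put in a class with at least 3 of its markers and a lead of 2. Counts were summed per mouse and class and tested with edgeR 4.0.16 (TMM, filterByExpr, quasi-likelihood) where at least 3 mice per group had 50 cells. DESeq2 1.42.0 and limma voom 3.58.1 were alternatives, beside scaling, filters, gates, doublets, each replicate left out and the replicate number as a block. The scripts were tested on simulated data. The members, the gene lists and the rule for named genes (from each list, at most the 2 with the smallest p in each direction) were chosen with earlier results of these data known. The labels give no batch. Endothelial-like, astrocyte-like and oligodendrocyte-like cells were too few in controls for the comparison with tumors. Chi-square per degree of freedom between mice of a group was at least 4.12, so none was a library deposited again. Levels less an estimated share of free RNA, and the held-out check of neuron-like cells, are not reported here.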

Additional observations from a re-analysis of the deposited data

Results flagged for a closer look

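A mouse was singled out where its level lay far from the others of its group, by Dixon's criterion at 95%. Of 77 groups examined, 9 had such a mouse, where chance gives about 1 in 20 for continuous values. For 2 of the 9 all other mice were at 0, so that any UMI in 1 mouse meets the criterion and that rate does not apply. Tumor 3 stood apart 3 times in neural-progenitor-like cells, a class of 48 cells there. Its levels were 15.4 CPM for Mycl (5 UMIs), 52.3 CPM for Max and 188 CPM for Mxd4, each above the other tumors. Over all cells, control 4 was high for Mycl (4.98 CPM) and control 3 low for Mxi1 (30.4 CPM). In phagocyte-like cells, control 4 was the 1 control with a Mycn UMI (2.20 CPM) and tumor 1 was high for Mycl (15.1 CPM, 11 UMIs). In neuron-like cells, control 3 was low for Myc (1.06 CPM). In neuroblast-like cells, tumor 5 was the 1 tumor with Myc UMIs (1.50 CPM, 5 UMIs). No explanation of these values was tested.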

How the results depend on the processing

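Among fits of single members under other settings that kept all libraries, 332 kept their direction and their side of the threshold, 14 lost a call, 9 gained one and 19, none of them called, reversed. The number of genes called in neuron-like cells was 2421, and 3732 with DESeq2, 783 with the replicate block and 968–2849 with 1 mouse left out, the low values without any 1 control. Between cycling and non-cycling neural-progenitor-like cells it was 2262, and 842 with DESeq2, 314 with no replicate block and 1172–2462 with 1 tumor left out (1434 without tumor 2, 1172 without tumor 4). Against phagocyte-like cells it was 4277, and 1961 with no replicate block. The cause was not tested.

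Replicate numbers shared by controls and tumors were not read as pairs of mice. Deviations of same-numbered mice correlated at 0.011–0.095, and those of other pairs of a control and a tumor at −0.14 to 0.081. These values are too close to 0 and to each other to decide whether the numbers paired the mice. With the replicate block, 8667 genes were called over all cells, 2594 in phagocyte-like and 2786 in microglia-like cells. There Max over all cells passed (0.60, adjusted p = 0.048) and Mxi1 did not (0.71, adjusted p = 0.063).

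None of the reversed log2 fold changes was called. For Mxi1 in phagocyte-like cells they were −0.031 with voom, −0.37 with library size scaling −0.10 with the replicate block, −0.15 to 0.16 with 1 mouse left out and −0.013 without tumor 2 and with no filter. Mnt there was 0.037 with no filter, 0.064 with no filter at 10% mitochondrial share and −0.19 to 0.030 with 1 mouse left out. With no filter it was 0.077, 0.052, 0.028 and 0.024 without tumor 1, 2, 3 or 4. In microglia-like cells, library size scaling gave −0.039 for Mxd4 and −0.41 for Mnt, and Mxi1 was 0.060 with no filter and 0.073 with no filter at 10% mitochondrial share. With 1 mouse left out, Mxi1 there ran from −0.27 to 0.13 and Mnt from −0.0070 to 0.14, and with no filter Mxi1 was 0.11, 0.039 and 0.21 without tumor 1, 3 or 4. In neuron-like cells Myc was −0.10 at 10% mitochondrial share, and with 1 mouse left out Myc ran from −0.86 to 0.87, Mycl from −0.54 to 0.56 and Mxi1 from −0.11 to 0.48. Between cycling states, Max was −0.042 with DESeq2, −0.024 with library size scaling, −0.018 with at least 4 markers, −0.034 without the block, −0.0100 with unclassed allele-carrying cells and −0.13 to 0.082 with 1 tumor left out. Mnt was −0.038 with voom, −0.041 with library size scaling and −0.0068 with at least 4 markers, and −0.10 to 0.40 with 1 tumor left out. Against phagocyte-like cells Mnt was 0.14 with library size scaling. Mxd4 in neuroblast-like cells moved from 83.4 to 92.9 CPM at 10% mitochondrial share.

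Myc had at most 3 UMIs a mouse in control phagocyte-like cells, which leaves its fold change imprecise, and Mycl and Mycn there were under the filter on low counts. Class levels resting on fewer than 10 UMIs have wide intervals.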
